A study of Mus musculus with 4 samples.

Results

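Long stretches of the mouse genome that held no H3K9me3 peak were described in cultured muscle stem cells with and without induced deletion of Setdb1. A stretch was any gap of 300000 bp or more between consecutive peaks on chromosomes 1 to 19 without 14, after the peaks of the control and the deleted cells had been pooled. There were 505 such stretches among 151779 gaps, which is 0.333% of the gaps. The muscle stem cells had been isolated by magnetic sorting from mice with floxed Setdb1 and a tamoxifen-inducible Cre driven by Pax7, and were grown in culture. The controls received ethanol and the deleted cells 4-hydroxytamoxifen, for 72 h, so both groups carried the floxed gene and the Cre. The labels spell the genotype Setdb1lox/lox;Pax7GakaCreERT2 for the control H3K9me3 library and Setdb1lox/lox;Pax7GakaCreERT3 for the deleted one. Whether that last digit is meant was not stated. Each condition had 1 H3K9me3 library, and its matching input library was not analysed here. The animals' age and number are not given in the sources used here. Peak lists of a histone mark carry no marker expression, so the cell type was taken from the labels and could not be checked.

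H3K9me3 is the trimethylated form of lysine 9 on histone H3. It is written by SETDB1 and by the SUV39H enzymes, is bound by heterochromatin proteins, and marks silenced chromatin at retrotransposons, at satellite repeats and across arrays of zinc finger and olfactory receptor genes. Muscle stem cells, which express Pax7, repair skeletal muscle fibres. Housekeeping genes, such as those for ribosomes and glycolysis, are active in nearly every cell, and many of their promoters are rich in CpG, the cytosine-guanine step that vertebrate genomes have mostly lost elsewhere.

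A gap records that no peak was called, which is not the same as a measured absence of the mark. The control list held 102604 peaks and the deleted list 108027 on the 18 chromosomes used, and the read depth of both libraries is unknown. With 1 library per condition no difference between the conditions has a replicate check and no p-value is given. All coordinates are mm10, and genes and promoters are those of RefSeq on GRCm38.p6, which shares its chromosomes with mm10. The Wilson intervals below are at 95% and cover counting error only, and neighbouring genes share a stretch, so they are too narrow for independent regions.

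The promoters of 8 genes inside the stretches are printed first, because they show the 2 kinds of sequence that the stretches held. Each is 300 bases from RefSeq (GRCm38.p6), from 250 before to 50 after the transcription start, read 5′ to 3′ on the gene's own strand, with every CG in capitals. The first group is single-copy and comes from genes of general function and 1 muscle gene.
Eif4a3: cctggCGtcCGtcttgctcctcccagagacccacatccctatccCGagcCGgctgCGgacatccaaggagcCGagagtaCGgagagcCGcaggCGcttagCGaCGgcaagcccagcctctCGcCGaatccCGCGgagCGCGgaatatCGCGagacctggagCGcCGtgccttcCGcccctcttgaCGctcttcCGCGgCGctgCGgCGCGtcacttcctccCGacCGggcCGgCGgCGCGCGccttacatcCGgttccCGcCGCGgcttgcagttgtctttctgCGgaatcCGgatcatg
Eef2: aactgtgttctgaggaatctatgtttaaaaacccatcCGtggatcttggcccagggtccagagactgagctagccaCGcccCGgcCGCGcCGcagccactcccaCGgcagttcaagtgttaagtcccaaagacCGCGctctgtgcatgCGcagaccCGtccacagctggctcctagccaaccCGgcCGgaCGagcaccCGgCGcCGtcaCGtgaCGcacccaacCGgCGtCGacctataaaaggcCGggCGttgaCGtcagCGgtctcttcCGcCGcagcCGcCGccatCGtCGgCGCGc
Snrpd2: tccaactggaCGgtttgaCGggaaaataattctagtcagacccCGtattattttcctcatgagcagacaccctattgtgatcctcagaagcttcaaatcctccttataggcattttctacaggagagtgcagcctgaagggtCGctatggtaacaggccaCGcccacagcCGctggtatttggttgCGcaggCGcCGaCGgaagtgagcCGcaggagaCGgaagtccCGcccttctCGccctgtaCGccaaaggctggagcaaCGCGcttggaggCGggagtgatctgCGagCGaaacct
Gapdh: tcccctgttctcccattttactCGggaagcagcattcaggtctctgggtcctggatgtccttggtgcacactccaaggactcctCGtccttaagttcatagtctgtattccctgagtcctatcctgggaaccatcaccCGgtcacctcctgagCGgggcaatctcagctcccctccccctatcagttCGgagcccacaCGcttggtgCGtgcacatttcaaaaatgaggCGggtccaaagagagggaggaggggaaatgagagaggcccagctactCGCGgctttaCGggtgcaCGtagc
Ckm: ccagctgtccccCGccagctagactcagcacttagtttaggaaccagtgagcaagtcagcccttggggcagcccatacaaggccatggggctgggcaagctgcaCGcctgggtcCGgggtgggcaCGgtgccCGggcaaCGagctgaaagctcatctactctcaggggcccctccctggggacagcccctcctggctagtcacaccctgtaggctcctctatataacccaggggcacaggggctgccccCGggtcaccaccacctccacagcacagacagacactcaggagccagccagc
Eif4a3 (chr11:119299994-119300293, minus strand) encodes an RNA helicase of the exon junction complex, and its promoter held 42 CG steps. Eef2 (chr10:81176381-81176680, plus strand), the translation elongation factor that moves the ribosome along the mRNA, held 34. Snrpd2 (chr7:19149588-19149887, plus strand), a core protein of spliceosomal particles, held 20. Gapdh (chr6:125165724-125166023, minus strand), a glycolytic enzyme often used as a reference, held 12. Ckm (chr7:19410844-19411143, plus strand), the creatine kinase of differentiated muscle, held 7. The capitals are dense in Eif4a3 and Eef2 and sparse in Ckm.

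The second group comes from tandem gene families in 3 of the longest stretches, and each of these promoters is present elsewhere in the promoter table letter for letter.
Pramel37: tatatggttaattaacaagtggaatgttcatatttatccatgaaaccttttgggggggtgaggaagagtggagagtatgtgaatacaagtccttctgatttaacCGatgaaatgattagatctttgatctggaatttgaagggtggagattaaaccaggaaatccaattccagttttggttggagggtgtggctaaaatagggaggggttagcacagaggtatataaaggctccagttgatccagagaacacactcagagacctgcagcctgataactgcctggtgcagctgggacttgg
Vmn1r130: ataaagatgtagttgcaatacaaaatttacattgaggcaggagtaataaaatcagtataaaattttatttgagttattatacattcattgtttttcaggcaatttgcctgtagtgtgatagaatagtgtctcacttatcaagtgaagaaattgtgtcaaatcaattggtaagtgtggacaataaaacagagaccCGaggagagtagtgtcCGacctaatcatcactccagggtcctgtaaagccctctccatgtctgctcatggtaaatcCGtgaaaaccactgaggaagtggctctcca
Zfp966: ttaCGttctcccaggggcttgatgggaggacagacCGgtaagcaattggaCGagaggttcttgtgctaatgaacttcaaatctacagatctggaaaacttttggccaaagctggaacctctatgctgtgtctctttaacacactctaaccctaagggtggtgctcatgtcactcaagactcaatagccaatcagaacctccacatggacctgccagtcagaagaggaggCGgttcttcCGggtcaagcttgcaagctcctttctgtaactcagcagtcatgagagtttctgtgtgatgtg
Pramel37 (chr5:94070496-94070795, minus strand) belongs to the PRAME-like family, whose best known members are active in germ cells and the early embryo. Its promoter held 1 CG step and was identical to that of Pramel50. Vmn1r130 (chr7:21511530-21511829, plus strand), a vomeronasal pheromone receptor gene, held 3 and was identical to Vmn1r137 and Vmn1r165. Zfp966 (chr2:175931051-175931350, minus strand), a zinc finger gene, held 5 and was identical to Zfp967. Pramel37 was chosen after its values were seen.

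The stretches were few but long. Together they covered 223 Mb, which was 9.77% of the 2281 Mb between the first and the last peak of the 18 chromosomes. The median gap of all 151779 was 2.88 kb, whereas the stretches had a median of 386 kb, with quartiles of 337 and 473 kb. The shortest measured 300.259 kb and the longest 2077 kb. There were 110 stretches of at least 500 kb, 22 of at least 750 kb and 7 of at least 1000 kb. Length chose the members, so the stretches were chosen by their gap in these peak lists and the lengths are a description.

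The threshold falls in a continuous range of gap lengths. Just inside it lay a gap of 300.259 kb on chromosome 16 that held Il1rap, an interleukin receptor subunit. Next came a gap of 300.272 kb on chromosome 4 with Zfp593 and a gap of 301.17 kb on the same chromosome with Pappa, a metalloproteinase gene. Just outside lay gaps of 298.873 kb with Tubb5 on chromosome 17, 298.8 kb with the activin receptor gene Acvr1b on chromosome 15, and 298.398 kb with Armh3 on chromosome 19. In all, 794 gaps measured 200 to 300 kb.

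The stretches were rich in genes. Of 19814 protein-coding genes, 4303 lay wholly inside a stretch (21.7%, Wilson interval 21.1 to 22.3%), against 9.77% of the length. The density was 19.3 protein-coding genes per Mb inside the stretches and 7.49 in the rest of the same span, a ratio of 2.58. Protein-coding genes covered 65.2% of the bases of the stretches and 38.4% of the remaining bases. Another 360 genes crossed an edge of a stretch. The genes inside were shorter, with a median of 14.4 kb against 18.7 kb for those not inside. A short gene fits wholly into a gap more easily, and counting genes by their midpoint gave a density ratio of 2.72.

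The gene content varied widely among the 505 members. The median was 6 protein-coding genes per stretch and the maximum 62. There were 41 stretches with none wholly inside, 298 with 1 to 9 and 166 with 10 or more, of which 53 had 20 or more. In 360 of the 505 stretches the density was above that of the rest of the span. Thus 145 stretches were as sparse in genes as the rest or sparser.

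Other gene classes were represented unequally. Of 379 tRNA genes 107 lay inside (28.2%, 23.9 to 33.0%), and of 1093 miRNA genes 284 did (26.0%, 23.5 to 28.7%). The share was 14.4% for snoRNA genes (177 of 1229), 13.4% for lncRNA genes (1587 of 11805) and 9.25% for pseudogenes (829 of 8964). The pseudogene share was thus close to the 9.77% of length that the stretches take up. Mir499, a miRNA hosted by the slow myosin gene Myh7b, lay in a 979 kb stretch on chromosome 2. Mir206 and Mir133b, the muscle miRNA pair, lay in a gap of 117 kb. These 3 miRNA genes were picked after their values were seen.

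Gene density rose with gap length below and above the threshold. It was 2.16 protein-coding genes per Mb in gaps under 50 kb, 5.11 at 50 to 100 kb, 9.41 at 100 to 200 kb and 12.1 at 200 to 300 kb. It was 16.8 in the 395 stretches of 300 to 500 kb and 24.2 in the 110 stretches of 500 kb or more. A gene longer than a gap cannot lie wholly inside it, so the values for short gaps are lowered by the way genes were counted.

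**Figure D1:**
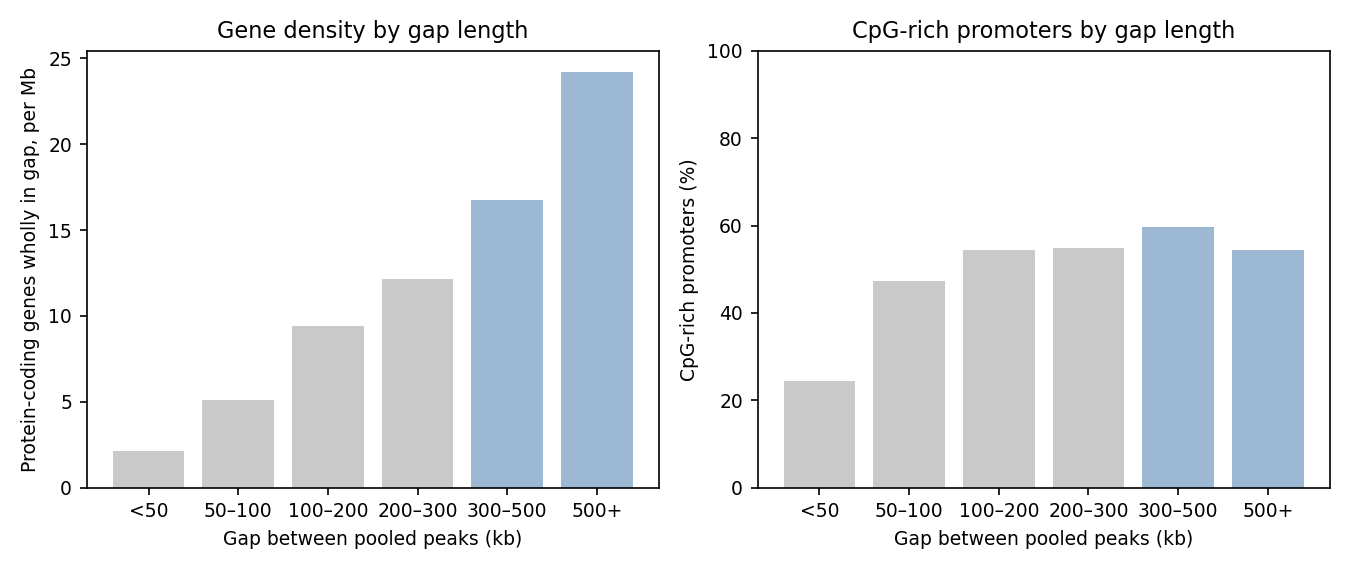
Bars give, for 6 classes of gap length in kb, the protein-coding genes wholly inside per Mb (left) and the percent of promoters that are CpG-rich (right), with stretches of 300 kb or more in blue. Gene density climbs from 2.16 to 24.2 per Mb, while the CpG-rich share is lowest at 24.3% in gaps under 50 kb and highest at 59.6% in stretches of 300 to 500 kb.

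Promoters inside the stretches were richer in CpG. A promoter was called CpG-rich when its observed over expected CpG was at least 0.6 and its GC content at least 50%. Over the 14 chromosomes on which the promoter table covered at least 80% of genes, 45.8% of 16265 promoters were CpG-rich. Inside the stretches the share was 57.5% of 3537 promoters (Wilson interval 55.9 to 59.2%), and in the rest it was 42.6% of 12728 (41.7 to 43.5%). The median number of CG steps in 300 bases was 18 inside, with quartiles of 7 and 27, and 11 in the rest, with quartiles of 3 and 24. Median GC content was 59.7% and 55.3%. Of the promoters printed above, Eif4a3, Eef2 and Snrpd2 were CpG-rich by this rule, with observed over expected CpG of 1.21, 1.11 and 0.87, and Gapdh (0.50) and Ckm (0.23) were not.

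Promoters in gaps just under the threshold were similar to those inside the stretches. The CpG-rich share was 54.8% at 200 to 300 kb and 54.5% at 100 to 200 kb, beside 59.6% at 300 to 500 kb and 54.4% at 500 kb or more. It was 47.2% at 50 to 100 kb and 24.3% in gaps under 50 kb. Where the transcription start lay in a peak, 0.214% of 468 promoters were CpG-rich and the median was 1 CG step. In stretches of 500 kb or more 9.78% of promoters had near copies elsewhere in the table, against 0.745% at 300 to 500 kb.

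Of the 505 stretches, 12 were dominated by duplicated promoters, those with at least 50% of their 50-base words found in another promoter of the table. Of all 16265 promoters, 2.9% were duplicated in this sense. Inside the stretches 152 of 3537 (4.30%) were duplicated, against 320 of 12728 (2.51%) in the rest. The 12 stretches, each with at least 3 promoters of which at least 50% were duplicated, covered 11.2 Mb and held 174 genes. They held 176 promoters, of which 144 were duplicated and 93 had an exact copy, and 12 of the 176 (6.82%) were CpG-rich, with a median of 2 CG steps. These 176 were counted on all 18 chromosomes, so they do not add up with the counts on the 14 chromosomes. In the other 493 stretches 15 of 3369 promoters on the 14 chromosomes (0.445%) were duplicated and 60.0% were CpG-rich. These 493 include stretches with fewer than 3 promoters in the table, which could not be called. A stretch on chromosome 15 with 49 genes, for example, had 0 promoters there. The handling of reads that match several places was not given in the sources used here, and its part in these gaps was not tested. Repeats, unmappable bases and assembly gaps inside the stretches were not measured. How much of each length could have carried a peak is therefore not known.

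Tandem families made up 5 of the 10 longest stretches. The longest, chr5:93739745-95817125, measured 2077 kb and held 28 protein-coding genes, mostly of the Pramel family, with 14 of 16 promoters duplicated. The next, chr2:175171257-176700303 (1529 kb), held 17 genes that included Zfp965, Zfp966, Zfp967, Zfp968 and Zfp973, with 20 of 22 promoters duplicated. Vomeronasal receptor genes filled chr7:21417273-22763834 (1347 kb, 34 genes, Vmn1r130 among them) and chr7:20078740-21065014 (986 kb, 29 genes, Vmn1r91 among them). The fourth in length, chr4:41581038-42856212 (1275 kb, 26 genes), held the chemokine genes Ccl21b and Ccl27a and the interleukin receptor genes Il11ra1 and Il11ra2, with 23 of 40 promoters duplicated. In that stretch the deleted list supplied both edges, and the control list alone left 2010 kb free.

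The remaining 7 stretches of this kind were shorter. A group of 6 genes from Vmn2r34 to Vmn2r36 and from Vmn2r41 to Vmn2r43 lay in 723 kb, Vmn2r38 to Vmn2r40 in 584 kb and Vmn1r160 in 432 kb, each on chromosome 7, as did the secretoglobin gene Scgb2b15 in 551 kb. Speer1 lay in 689 kb on chromosome 5, the predicted gene Gm40862 in 595 kb on chromosome 12, and the defensin gene Defa42 in 370 kb on chromosome 8.

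The other 5 of the 10 longest stretches held single-copy genes of many functions, with no duplicated promoter. On chromosome 8, chr8:69768451-70967447 (1199 kb) had the most genes of any stretch, 62. They included Pbx4 (a homeobox gene), Ndufa13 (respiratory complex I), the growth factor genes Gdf1 and Gdf15, and also Lsm4 (spliceosome). On chromosome 11, chr11:119062295-120155316 (1093 kb) held 19 genes with Eif4a3. On chromosome 7, chr7:18869516-19891166 (1022 kb) held 55, among them the transcription factor genes Foxa3 and Six5, Snrpd2, Ckm and Zfp296. On chromosome 9, chr9:20882572-21861315 (979 kb) held 35 with the initiation factor gene Eif3g. On chromosome 2, chr2:155350584-156329116 (979 kb) held 27 with Eif6 and with Gdf5, a growth factor of developing joints.

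**Figure D2:**
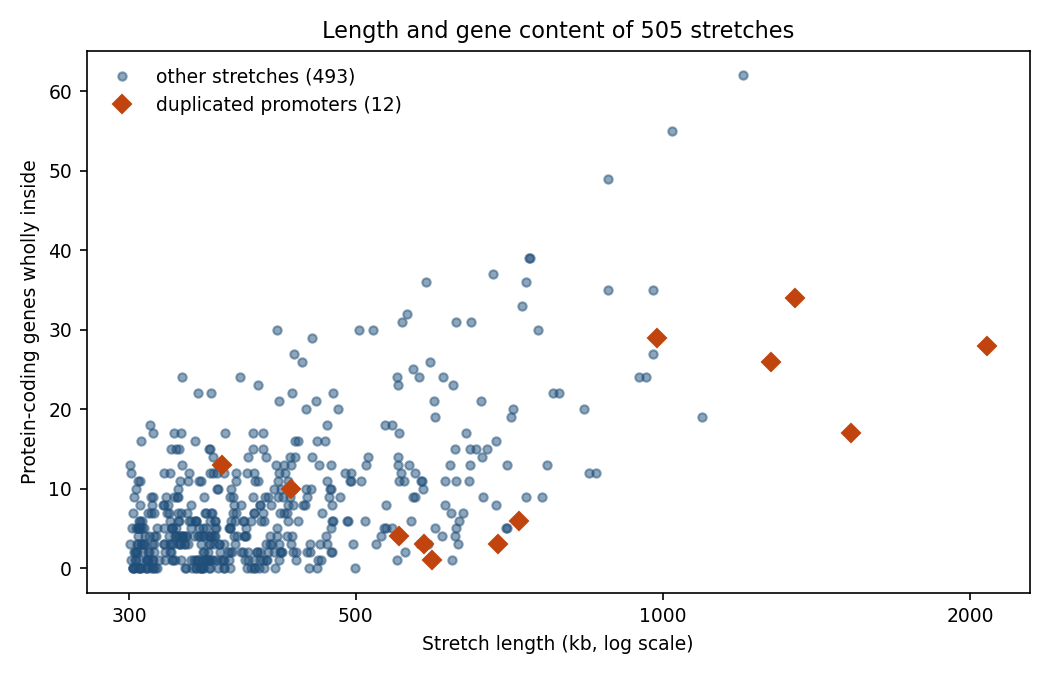
Each point is 1 of the 505 stretches, placed by its length in kb (log scale) and its number of protein-coding genes, with the 12 stretches of duplicated promoters as orange diamonds. The other points include stretches with too few promoters in the table to be called. The stretch with 62 genes measures 1199 kb, and the 4 longest stretches, from 1275 to 2077 kb, are all diamonds.

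The rest of the 10 stretches with most genes were of intermediate length. A stretch of 883 kb on chromosome 15 (chr15:75956663-76839570) held 49 genes, among them Cyc1 (cytochrome c1), Scx (the tendon factor scleraxis) and Foxh1 (a forkhead factor of Nodal signalling). On chromosome 10, chr10:80518978-81260625 (742 kb) held 39, with Klf16, Sf3a2, Lsm7 and Eef2, and chr10:127998399-128732634 (734 kb) held 36, with Atp5b, Rpl41 and Rps26. The ribosomal stalk gene Rplp2 lay among 39 genes in 739 kb on chromosome 7 (chr7:140935260-141674551). Capn1 was the longest of 37 genes in chr19:5513427-6194473 (681 kb), and Rab11fip3 the longest of 36 in chr17:25708042-26294185 (586 kb). On chromosome 8, chr8:105417163-106299857 (883 kb) held 35 with Psmb10, a proteasome subunit.

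At the other end, 41 stretches held no protein-coding gene wholly inside, but in 33 of them a protein-coding gene crossed an edge or spanned the stretch. That left 8 stretches which no protein-coding gene touched. Of 6 stretches with no gene of any kind wholly inside, 2 were touched by none. The longest without a protein-coding gene wholly inside measured 499 kb on chromosome 7 and overlapped Dlg2, a synaptic scaffold gene. The next measured 458 kb and overlapped Zfpm2, a cofactor of GATA factors, on chromosome 15. A stretch of 450 kb on chromosome 15, before Myc, was touched by no protein-coding gene. A stretch of 417 kb on chromosome 5 overlapped the protocadherin gene Pcdh7, and 1 of 407 kb on chromosome 3 overlapped Vav3 and Ntng1.

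Housekeeping genes lay inside stretches more often than the average gene. Of 362 genes in 6 housekeeping lists, 122 (33.7%, 29.0 to 38.7%) were wholly inside, against 21.7% of all protein-coding genes, and they were spread over 95 stretches on 17 chromosomes. Peaks touched 14 of the 362 (3.87%), against 27.3% of all genes. Of the 479 genes in 4 developmental lists, 77 (16.1%, 13.1 to 19.6%) were inside and 89 (18.6%) were touched by a peak. Gene density moved with this difference. The median number of protein-coding neighbours within 250 kb was 10 for the housekeeping genes, 5 for the developmental genes and 8 for all, and 13 for the genes inside stretches. Gene length also differed, with a median of 7.72 kb for the housekeeping genes, 9.01 kb for the developmental genes and 17.5 kb for all. A short gene fits wholly into a gap more easily and offers fewer bases for a peak to touch. The part of gene density and of gene length in these differences was not tested. The lists of both groups also moved with the settings, as ratios to the share of all genes. At a −log10 q of 2 or more, the developmental lists had 0.826 (Hox), 0.970 (transcription factors), 1.13 (signalling) and 1.23 (muscle regulators). At a minimum of 500 kb, the housekeeping lists ranged from 0.359 (reference genes) to 1.87 (translation factors).

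Translation and ribosome genes had high shares among the housekeeping lists. Of 69 genes named as translation factors 29 were inside (42.0%, 31.1 to 53.8%), 1.94 times the share of all genes. The name pattern also took in the methyltransferase genes Eef1akmt2 and Eef1akmt4, the kinase gene Eif2ak4 and Eif4a3 of the exon junction complex. Eif4a3 and Eif3g lay in stretches of 1093 and 979 kb, Eif6 in 979 kb, and Eif2b4, a subunit of the nucleotide exchange factor, in 755 kb. Eef2 lay in 742 kb, and Etf1, the release factor, in 686 kb. Of 77 cytosolic ribosomal protein genes 25 were inside (32.5%, 23.1 to 43.5%). Rpl13, Rpl12 and Rplp2 lay in stretches of 963, 781 and 739 kb. A peak touched 1 of the 77, Rpl39l, with 712 bp covered.

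Energy, splicing and proteasome genes had shares above that of all genes, but each Wilson interval included the 21.7% of all genes. Of 86 respiratory chain genes 26 were inside (30.2%, 21.5 to 40.6%), among them Cyc1 of complex III and Cox4i1 of complex IV, in stretches of 883 and 667 kb. Of 72 spliceosome genes 22 were inside (30.6%, 21.1 to 42.0%). Of 34 proteasome genes 10 were inside (29.4%, 16.8 to 46.2%), with Psmd11 in a 598 kb and Psmc3 in a 459 kb stretch. At a minimum of 500 kb, 2 of the 34 proteasome genes and 7 of the 86 respiratory genes were inside, 0.633 and 0.876 times the share of all genes. Both ratios fell below 1 there. Their intervals, 0.175 to 2.05 and 0.430 to 1.71, included 1, so the direction at 500 kb is not settled. The members of these lists with most bases in peaks were Cox7b2, with 47476 bp, and Snrpn, an imprinted gene whose long annotated span had 100058 bp. Whether each listed gene is active in nearly every cell was not checked, so these members need not be housekeeping genes in that sense.

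Common reference genes lay near the threshold. Of 30 such genes 12 were inside (40%, 24.6 to 57.7%), and the median gap around the list was 282 kb. Gapdh (chr6:125161852-125166467) lay in a stretch of 556 kb with 31 genes. Actb (chr5:142903115-142907976), cytoskeletal actin, lay in a stretch of 317 kb with 4 genes, which was 504 kb in the control list alone. Tuba1b, Ldha, Ppia, Ubb and Hsp90ab1 lay in stretches of 458, 430, 401, 382 and 372 kb. At a minimum of 500 kb 1 of the 30 was left inside, with a share 0.359 times that of all genes.

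**Figure D3:**
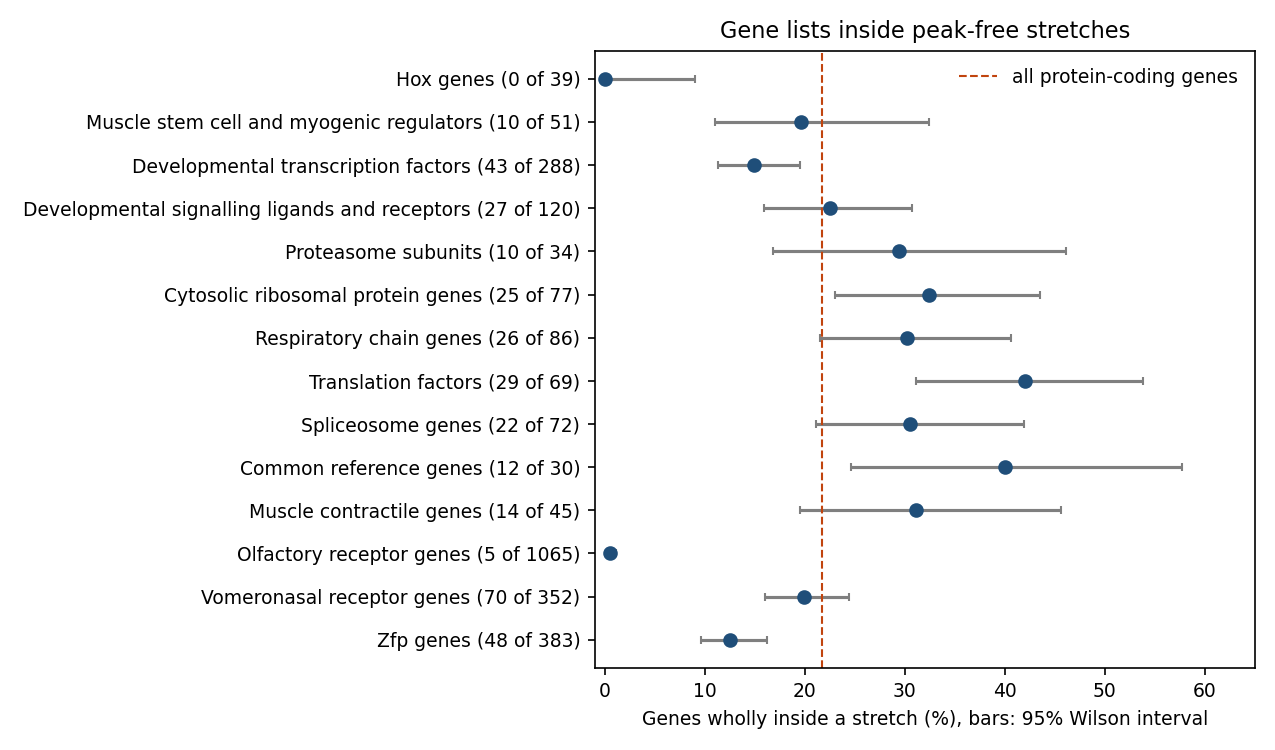
Points give the percent of each gene list that lies wholly inside a stretch, with 95% Wilson intervals and the counts beside each name, and the dashed line marks the 21.7% of all protein-coding genes. Translation factors lie highest at 42.0%, and Hox and olfactory receptor genes lie lowest at 0 and 0.469%.

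Developmental transcription factor genes were inside less often than the average gene. Of 288 such genes 43 were inside (14.9%, 11.3 to 19.5%), 0.688 times the share of all genes, and 60 (20.8%) were touched by a peak. At a −log10 q of 2 or more, 156 of the 288 were inside, 0.970 times the share of all genes, so the lower share was not kept there. Members inside included Pbx4, Foxa3, Six5, Snai3 (of the snail family), Scx and Foxh1, in stretches of 1199 to 883 kb, and with them Runx1, Runx3, Klf4 and Sox10. The most covered were Sox5, with 19942 bp in peaks, and Tfap2d, with 19905 bp. Runx1, Runx3, Klf4 and Sox10 were chosen after their place was seen.

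Developmental signalling genes were inside about as often as the average gene. Of 120 ligand and receptor genes 27 were inside (22.5%, 15.9 to 30.8%). Gdf1 and Gdf15 shared the 1199 kb stretch, Gdf5 lay in 979 kb, Wnt8a in 686 kb, the Notch ligand Dll4 in 641 kb and Dkk3 in 625 kb. Fgf10 and Fgf12, 2 fibroblast growth factor genes, had 38300 and 35992 bp in peaks.

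None of the 39 Hox genes, which pattern the body axis, lay in a stretch (Wilson interval 0 to 8.97%), although no peak touched a Hox gene. The Hoxa cluster (106 kb on chromosome 6) lay in a gap of 210 kb and the Hoxc cluster (116 kb on chromosome 15) in a gap of 256 kb, both free of peaks but under the threshold. The Hoxb cluster on chromosome 11 spanned 174 kb and held 9 peaks between its genes, 3 of the control and 6 of the deleted list. The Hoxd cluster on chromosome 2 held 1 peak of each list. Of the 39 genes 36 lay in gaps of 100 to 300 kb, and at a minimum of 200 kb 20 were inside, 1.53 times the share of all genes. At 300 kb, 9 of the 39 were inside with the control list alone and 9 with the 50000 peaks of highest −log10 q per list. At a −log10 q of 2 or more 18 were inside. These counts were 0.699, 0.661 and 0.826 times the share of all genes in the same settings, each with an interval that included 1. The count of 0 thus depends on the minimum length and on the peaks used. Both edges of the Hoxc gap were deleted-list peaks.

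**Figure D4:**
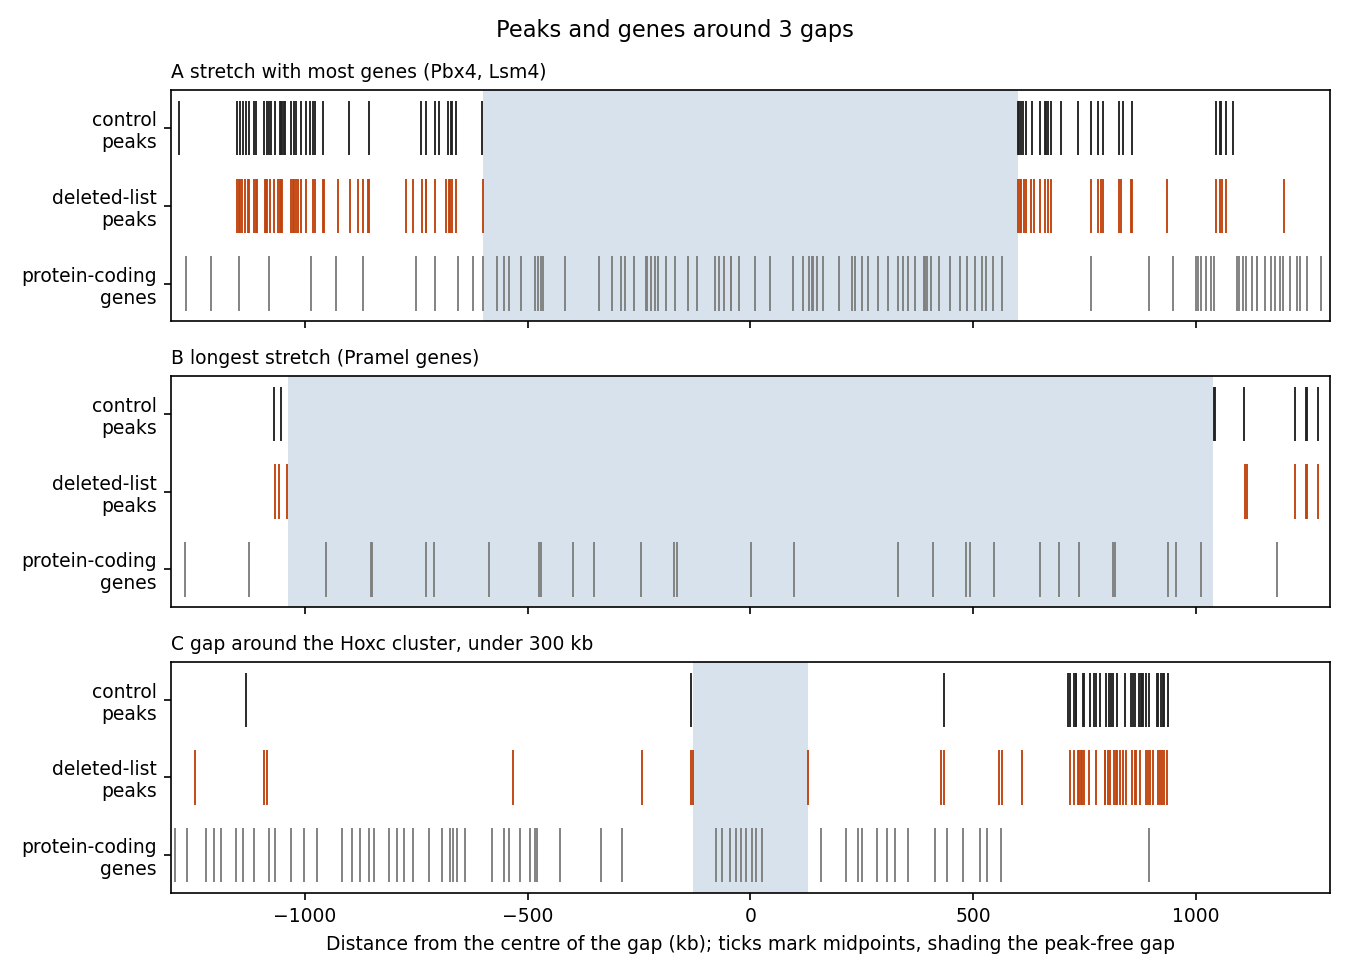
Ticks mark peaks of the control list (black), peaks of the deleted list (orange) and protein-coding genes (grey) by distance in kb from the centre of 3 gaps, whose peak-free part is shaded. The gene-rich stretch of 1199 kb (A) is bordered by dense peaks on both sides, the Pramel stretch of 2077 kb (B) has 9 peaks of each list in the window, and the Hoxc gap of 256 kb (C) lies below the threshold.

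Muscle genes were split between the stretches and shorter gaps. Of 51 muscle stem cell and myogenic regulators 10 were inside (19.6%, 11 to 32.5%), a share that cannot be told from 21.7% at this number. Cdh15, the M-cadherin of muscle stem cells, lay in a stretch of 963 kb. Id1, an inhibitor of myogenic factors, lay in 791 kb, Sdc3 (syndecan-3) in 734 kb and the Notch target Heyl in 569 kb. Tcf3, the E-protein partner of MyoD, lay in 443 kb and Fgfr1 in 379 kb. The others inside were Chrd, Id2, Mef2d and Vcam1. Peaks touched 9 of the 51 (17.6%), against 27.3% of all genes. The most covered were Tcf4, with 4122 bp in peaks, and Eya2, with 2682 bp.

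The factors that define the myogenic lineage were not inside. Pax7 lay in a gap of 182 kb, Myod1 in 145 kb, Myf5 and Myf6 in 142 kb and Myog in 109 kb, each with no peak in the gene. Pax3 was touched by a peak of the deleted list over 245 bp. Of the 45 genes of the contractile apparatus and its energy supply, 14 were inside (31.1%, 19.5 to 45.7%). Ckm lay in the 1022 kb stretch, skeletal actin Acta1 in 947 kb, the troponin genes Tnni1 and Tnnt2 together in 770 kb, and titin (Ttn) in 530 kb, of which the gene itself fills a large part. Peaks touched 6 of the 45 (13.3%), with most bases covered in Nebl (4537 bp) and Mybpc1 (3828 bp).

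Setdb1 itself (chr3:95323525-95357202) crossed the edge of a stretch. The stretch chr3:94915875-95348862 measured 433 kb, held 22 protein-coding genes and included 25.3 kb of the 33.7 kb of Setdb1. It ended at a control peak of 388 bp within the gene, with an authors' fold enrichment of 2.63 and a −log10 q of 1.53. The deleted list had no peak in the gene, and its own gap there measured 627 kb. Whether Setdb1 was excised cannot be read from peaks.

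The receptor and zinc finger families, which are large and clustered, differed from each other. Of 1065 olfactory receptor genes 5 (0.469%) were inside, between 7.49 kb (Olfr368) and 20.1 kb (Olfr12) from an edge, and 40.2% were touched by a peak. Of 352 vomeronasal receptor genes 70 (19.9%) were inside, all on chromosome 7 in 6 stretches, and 68 of these were in the stretches of duplicated promoters. At the same time 163 of the 352 (46.3%) were touched by a peak. Of 383 Zfp genes 48 (12.5%, 9.58 to 16.2%) were inside and 209 (54.6%) were touched by a peak, with Zfp804b at 210049 bp. Without these 3 families 23.2% of 18014 genes were inside.

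The stretches were unevenly spread over chromosomes. Chromosome 11 had the most, 56, which took up 24.2 Mb or 20.4% of its span. Chromosomes 7 and 19 each had 16.4%, in 47 and 22 stretches. The lowest shares were 3.25% on chromosome 10 (9 stretches), 3.91% on chromosome 6 (14), 4.32% on chromosome 13, 4.36% on chromosome 3 and 4.68% on chromosome 18. On 18 of 18 chromosomes the density of protein-coding genes was higher inside the stretches than in the rest, with ratios from 1.58 on chromosome 7 to 4.05 on chromosome 10. Chromosomes with more genes per Mb had a larger share in stretches, with Pearson's r of 0.80 and Spearman's rho of 0.70 over 18 chromosomes, given as a description, since they share both libraries.

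**Figure D5:**
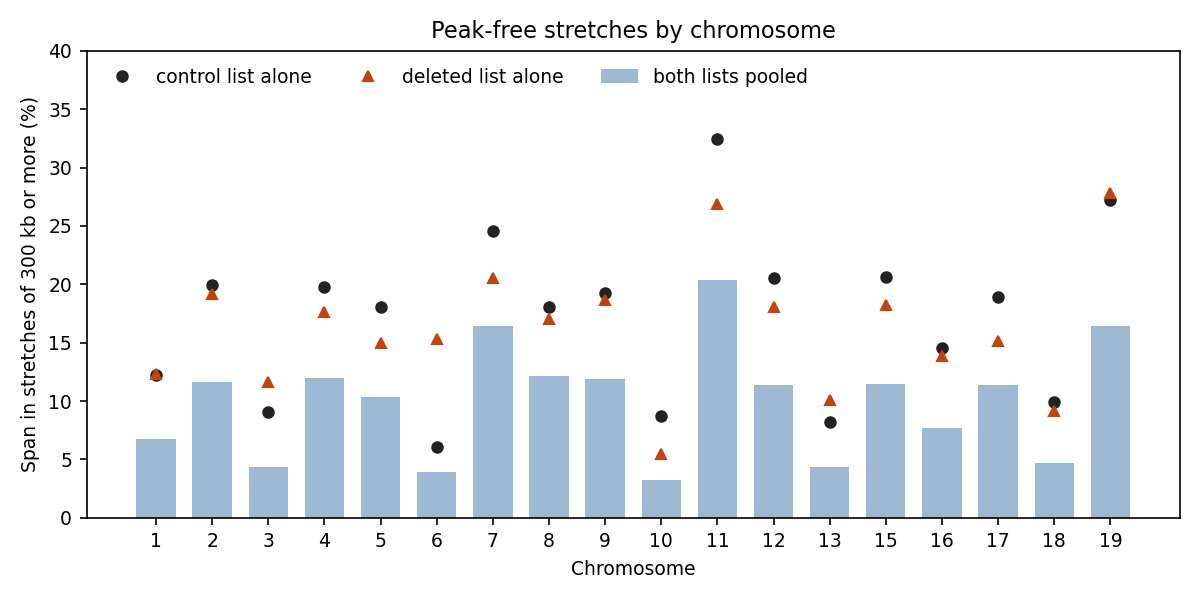
Bars give the percent of each chromosome's span in stretches of 300 kb or more with both lists pooled, and points give the same for the control list alone (black circles) and the deleted list alone (orange triangles). Chromosome 11 is highest with 20.4% pooled, and on chromosome 6 the deleted list alone leaves 15.3% free against 6.04% for the control list.

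Taken apart, the lists left more of the genome free than the pool. The control list alone had 816 stretches of 300 kb or more over 381 Mb (16.7% of the span) with 6545 protein-coding genes inside (33%). The deleted list alone had 792 over 363 Mb (15.9%) with 5822 genes (29.4%). Under both lists 4562 genes were inside a stretch, 1983 in the control list only, 1260 in the deleted list only and 12009 in neither. The difference in the number of stretches reversed at a −log10 q of 2 or more, with 2014 for the control peaks and 2218 for the others, and with the 50000 peaks of highest q per list, with 1428 and 1451. Housekeeping genes were inside in 181 of 362 cases (50%) with the control peaks and 156 (43.1%) with those of the deleted cells, and developmental genes in 131 (27.3%) and 117 (24.4%) of 479.

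Most stretches of 1 list were crossed by a few peaks of the other. Of the 816 control stretches, 106 had no deleted-list peak inside, 182 had 1 and 528 had 2 or more, and those peaks covered 0.276% of their length, against 5.65% of the whole span. Of the 792 deleted-list stretches, 169, 217 and 406 had none, 1 and 2 or more control peaks, which covered 0.240%, against 5.74%. A pooled stretch remained within 487 of the 816 and 489 of the 792. Seen from the 505, 106 had exactly the same length in the control list alone and 169 in the deleted list alone. In 141 the gap was at least 100 kb longer in the control list alone, and in 116 in the deleted list alone. The Eef2 stretch on chromosome 10 grew from 742 kb to 1135 kb in the control list and 1249 kb in the deleted list.

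The regions where the lists differed most were found by the bases of one list inside the stretches of the other. In the control-free regions the deleted list covered 9919 bp with 11 peaks in 413 kb around Wwc1 on chromosome 11 and 7509 bp with 6 peaks in 378 kb around Megf6 on chromosome 4. It covered 7507 bp in 572 kb with Psma7 and Rps21 on chromosome 2, 7220 bp in 425 kb without a whole protein-coding gene on chromosome 12, and 7127 bp in 1241 kb with Zfp541 and Meis3 on chromosome 7. In the deleted-free regions the 5 with most control bases were all on chromosome 6. Control peaks covered 14813 bp with 21 peaks in 1002 kb that held Wnt16, 10415 bp in 668 kb that held Mdfic and 9186 bp in 318 kb that held Fezf1, and 14355 and 9410 bp in regions of 738 and 407 kb without a whole protein-coding gene. Chromosome 6 as a whole had 22 stretches in the control list alone and 50 in the deleted list alone. Chromosome 10 differed the other way, with 28 and 14.

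The peaks that ended the stretches had medians close to those of their lists. Of the 1010 edges, 442 were set by a control peak, 567 by a deleted-list peak and 1 by both. The median of the authors' −log10 q was 1.64 for control edges and 1.60 for all control peaks, and 1.52 and 1.48 in the deleted list. The median fold enrichment was 2.63 for control edges against 2.57 for all control peaks, and 2.68 against 2.59 for the other list. A −log10 q of 2 or more was reached by 24.4% of control edges and 19.1% of all control peaks, and by 18.9% and 11.7% in the deleted list. Some neighbours were separated by little. Of 487 pairs of neighbouring stretches 35 lay within 10 kb of each other, and 21 pairs were split by 1 peak, 10 by a control peak and 11 by a deleted-list peak. The zinc finger stretch on chromosome 2 was followed after a control peak of 0.35 kb by another stretch, and the deleted list alone left 1901 kb free there.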

How the data were processed

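H3K9me3 was profiled by native chromatin immunoprecipitation after micrococcal nuclease digestion, with 1 library per condition. The deposited files were 2 broad peak lists. Per the submitters' processing notes, BWA 0.7.17-r1188, MACS2, ChIPseeker 1.30.3 and mm10 were used. MACS2's version and settings, input use and depth are not given in the sources used here. A deposited peak carries the authors' score, fold enrichment (a linear ratio) and −log10 p and q. Fold and q were used within a list to describe or filter. Peak names say replicate 2 and the labels replicate 1, so lists were assigned by condition.

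Peaks were pooled, merged and the gaps between them measured with Python 3.11.15, pandas 2.3.3 and numpy 2.4.6. Gaps before the first and after the last peak were not counted. Genes came from a RefSeq table (GRCm38.p6), and a gene was inside when it lay wholly within a stretch. Intervals came from scipy 1.17.1 and figures from matplotlib 3.10.9. The gap search was tested on simulated peaks. No test was possible with 1 library per group.

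The stretches and the 14 gene lists were chosen with earlier results of these data known. Some genes are in 2 lists. Named stretches were the 10 longest, the 10 with most genes, the 3 nearest to 300 kb on either side, and per list the 5 with most bases of the other list. Named genes were up to 5 list members per named stretch or its longest gene, per list up to 6 members in the longest stretches and up to 4 with most peak bases, and always Setdb1, the Pax and myogenic factors, Actb, Gapdh and the Hox clusters. Of the genes this rule names, 1 is not reported here. The limit to 14 chromosomes for promoters, the promoter duplication rule and the 5 longest stretches without a whole protein-coding gene were chosen after seeing the data. Alternatives covered the minimum length, each list alone, −log10 q of 2 or more, the 50000 peaks of highest q per list, chromosomes, the gene rule and the duplicated stretches.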

Additional observations from a re-analysis of the deposited data

Results flagged for a closer look

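On chromosomes X and Y and on unplaced scaffolds, which the rule leaves out, peaks were more numerous in the deleted list than in the control list. Chromosome X held 4892 peaks in the deleted list and 2437 in the control list, with 86 pooled stretches of 300 kb or more there. Chromosome Y held 16 and 14, and unplaced scaffolds held 185 and 155. The deleted list was also the larger on the 18 chromosomes used, with 108027 against 102604 peaks. With 1 library per condition none of these differences has a replicate check. Chromosome 14, also left out, had fewer in the deleted list, with 568 against 654 peaks, and 108 pooled stretches. Both counts are few for a whole chromosome, beside the 108027 and 102604 peaks on the 18 chromosomes used. The 108 stretches therefore cannot be read as a lack of the mark on chromosome 14. Why so few peaks were called there was not tested.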

How the results depend on the processing

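Of 206 alternative values over 20 results, 147 kept to the reported value, 57 moved and 2 reversed. A value kept to the reported one when it fell within the Wilson interval of that result, or within 1.5-fold where there was no interval. Among 154 values for gene lists 133 kept to it. This does not mean that the direction was kept, since small lists have wide intervals. Some list values that crossed 1, among them those of the muscle regulators, were counted as kept. In the order minimum 200 kb, minimum 500 kb, control list alone, deleted list alone, −log10 q of 2 or more and the 50000 peaks of highest q per list, the number of stretches was 1299, 110, 816, 792, 1764 and 976. The percent of span was 18.1, 3.33, 16.7, 15.9, 41.8 and 20.0. The percent of protein-coding genes inside was 33.4, 9.29, 33.0, 29.4, 55.9 and 34.9, and the density ratio 2.28, 2.99, 2.48, 2.21, 1.79 and 2.17. The percent of genes was also 22.5 without chromosome 6, 24.8 with chromosomes 14 and X, 22.6 by gene midpoint and 20.8 without the 12 stretches of duplicated promoters. The setting with chromosomes 14 and X is a weak check, because chromosome 14 held few peaks, 654 in the control and 568 in the deleted list. The density ratio was 2.15 with chromosomes 14 and X and 2.72 by midpoint, and above 1 under every alternative tried. The CpG-rich percent inside was 54.4 at 500 kb, 53.3 at −log10 q of 2 and 60.0 without duplicated stretches.

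The deleted list had 24 fewer stretches than the control list (a difference of -24), and this difference was -8 at 200 kb, -19 at 500 kb, -52 without chromosome 6 and -49 with chromosomes 14 and X. With 50000 peaks per list it reversed to 23, and at −log10 q of 2 or more to 204, so no direction is claimed.

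For gene lists, as a ratio to the share of all genes, Hox genes had 1.53 at 200 kb, 0.699 in the control list alone, 0.826 at −log10 q of 2 and 0.661 with 50000 peaks. Vomeronasal genes had 0.663, 0.628, 0.498 and 0.634 in the same settings, 1.93 at 500 kb and 0.0273 without duplicated stretches. Olfactory genes had 0.0759, 0.0512, 0.129 and 0.0914, 0 at 500 kb and 0.0546 with chromosomes 14 and X. At 500 kb signalling genes had 0.718, proteasome genes 0.633, respiratory genes 0.876 and reference genes 0.359. Developmental transcription factors had 0.970 at −log10 q of 2. In all 15 values crossed 1, over 7 lists. The muscle regulators crossed at 200 kb (1.23), in the deleted list alone (1.20), at −log10 q of 2 (1.23), with 50000 peaks (1.07) and by midpoint (1.04). Translation factors stayed between 1.48 and 2.02 and Zfp genes between 0.475 and 0.674. The cause of these shifts was not tested. No paired analysis was possible because each condition had 1 library. Depth is unknown, so a gap cannot be separated from a mark too weak to call.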
